A study of Mus musculus with 16 samples.

Results

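The comparison set the cortex of all mice with the P301S tau transgene against the cortex of control mice without it, and asked which differences were shared whatever the Trem2 genotype. Its members were the 12 P301S+ libraries of the series and the 4 TREM2+/+ control libraries, which are all 16 libraries deposited, and the 12015 of 24060 listed genes with a mean level of at least 1 RPKM (reads scaled to gene length and library size). The 12 tau libraries were 4 from P301S+ TREM2+/+ mice with both Trem2 alleles, 4 from P301S+ TREM2+/- mice with 1 allele (heterozygotes) and 4 from P301S+ TREM2-/- mice with none (knockouts). The control mice carried both Trem2 alleles, so the tau group as a whole differed from its controls in tau and, on average, in Trem2 dose. Each genotype had 2 females and 2 males, aged 8 to 9 months, with the strain given as C57BL/6; C3. The tau line, its promoter and the deleted part of Trem2 are not given in the labels used here. RNA came from bulk cortex, in which fewer cells of a type and less RNA per cell cannot be told apart.

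Tau, encoded by Mapt, binds the microtubules of axons, and the P301S change makes it prone to aggregate, which is used in mice to model neurofibrillary disease. Microglia, the brain's resident immune cells, and astrocytes answer such pathology with disease programs, and Trem2 is a microglial surface receptor that signals through Tyrobp. Oligodendrocytes wrap axons in myelin.

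Libraries held 2552467 to 14473231 recovered reads. The mean depth in megareads (M) was 7.75 ± 2.83 in the tau group (SD, n = 12) and 8.27 ± 4.24 in controls (SD, n = 4, two-sided exact permutation p = 0.787). Trem2, the deleted gene, stood at 34.0, 30.1, 29.6 and 14.3 RPKM in the P301S+ TREM2+/+ libraries, at 4.50, 8.37, 25.2 and 13.6 in the heterozygotes, at 1.44, 1.71, 1.46 and 3.75 in the knockouts and at 10.01, 12.1, 20.2 and 7.35 in the controls. The 4 knockouts were lower than every other library, as labelled, and the heterozygotes overlapped with the P301S+ TREM2+/+ libraries and the controls. Slc17a7, the vesicular glutamate transporter of cortical neurons, was found in every library, at 64.0 to 185 RPKM in the tau group and 136 to 274 in controls. One control, replicate 3, a female, stood apart from all others. On the first principal component (52.4% of the variance) it lay at -130.8 where no other library lay below -18.8, its small nucleolar RNA reads came to 750.2 per M reads against 19.6 to 65.6 elsewhere, and Psap, a lysosomal protein precursor, stood at 10.5 RPKM against 640.2 to 1682. Counts of genes and medians of gene lists are therefore given without that control, where 3 controls remain, and with all 16 libraries. Differences of single genes are those without it unless stated, with its own level printed beside the other controls for the genes described in full.

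With all 16 libraries only Prnp passed the test, 1 of 12015 genes (0.00832%), and 0 genes passed as lower (limma, adjusted p under 0.05 over all genes tested). When control replicate 3 was left out, Prnp and Mag rose, 2 genes or 0.0166% of those tested, and again 0 fell. Genes higher at an unadjusted p under 0.05 made up 10.5% of the genes with all 16 libraries and 5.38% without control replicate 3, and genes lower made up 5.92% and 4.36%. The median log2 difference over all genes was 0.071 with all 16 libraries, where 59.2% of the genes were above 0, and 0.011 without control replicate 3, where 52.2% were. These shares are the background for the gene groups described here. With array weights, which changed the weight of every library (0.045 for control replicate 3 and 0.60 to 4.57 for the others), 29 genes passed in all 16 libraries, 23 higher and 6 lower, among them Ttyh2, Pmp22, Vamp5, Cnp, Mog, Mal, Qdpr, Gabra3 and C1ql3, which are described here with their unweighted values.

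**Figure D1:**
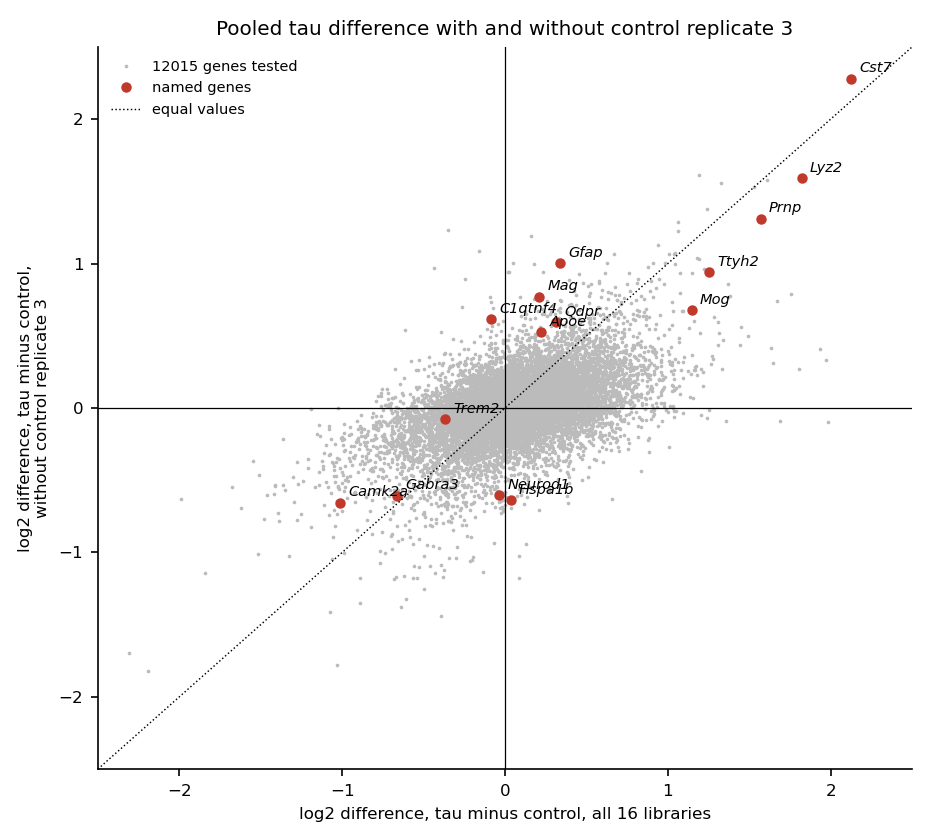
Pooled tau minus control on the log2(RPKM + 1) scale for the 12015 genes tested, with all 16 libraries on the horizontal axis and without control replicate 3 on the vertical axis. Prnp lies at 1.57 and 1.31, near the dotted line of equal values, whereas Mag moves from 0.21 to 0.77 and Hspa1b from 0.036 to -0.64 when that control is left out.

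Prnp encodes the cellular prion protein, a membrane-anchored glycoprotein of neurons (chromosome 2, 131909928 to 131938429, plus strand, GRCm38). Its level was 733 RPKM in the lowest tau library, 879 at the median and 1120.3 in the highest. The controls stood at 415, 350.4, 174 and 326, so every tau library lay above every control. The log2 difference was 1.57 ± 0.19 with all 16 libraries (SE, adjusted p = 0.0113, limma), and 1.31 ± 0.13 without control replicate 3 (adjusted p = 0.000698), a 2.48-fold higher level. Prnp was the only gene higher at an adjusted p under 0.05 in each of the 3 tau genotypes against the 3 controls (limma), 1 gene or 0.00832%. It differed by 1.26, 1.36 and 1.32 on the log2 scale in P301S+ TREM2+/+ mice, heterozygotes and knockouts. The F test found no difference among these genotypes (adjusted p = 0.89, limma). With all 16 libraries the call was lost without control replicate 4 (adjusted p = 0.098), without both P301S+ TREM2+/+ females (0.132) and with no filter on low values (0.0755). Some P301S tau lines express the transgene from prion protein gene sequences, and whether reads from vector sequence add to the Prnp values was not tested.

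Mag, the myelin-associated glycoprotein, is a sialic acid-binding adhesion molecule on the inner face of myelin (chromosome 7, 30899176 to 30914873, minus strand, GRCm38). It ranged from 44.9 to 79.9 RPKM in the tau libraries, with a median of 61.4, and stood at 35.4, 33.5 and 32.5 in controls 1, 2 and 4. Every tau library was above these 3 controls. Control replicate 3, at 177, was above every tau library. Leaving it out, the log2 difference was 0.77 ± 0.11 (SE, adjusted p = 0.0341, limma), with 0.86, 0.92 and 0.54 in P301S+ TREM2+/+ mice, heterozygotes and knockouts. With all 16 libraries it was 0.21 ± 0.31 (SE, adjusted p = 0.71, limma). Mag kept its sign in all 26 alternatives tried without control replicate 3 but missed the threshold in 15 of them, with an adjusted p of up to 0.401 without control replicate 2, 0.253 without control replicate 4 and 0.296 with tau and control fitted as 2 groups.

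The windows from 250 bases before to 50 bases after the start of both genes are shown, since these 2 genes passed the test. They come from RefSeq (GRCm38.p6) and are printed 5′ to 3′ on the gene's strand. In Prnp (chr2:131909678-131909977, plus strand) the capitals mark 3 GC boxes (GGGCGG) and 2 CCAAT boxes (CCAAT), searched on both strands. In Mag (chr7:30914814-30915113, minus strand, the first of 3 listed windows) they mark 1 SOX core (ACAAAG, both strands), the letters bound by the family of Sox10, a regulator of oligodendrocytes.
Prnp: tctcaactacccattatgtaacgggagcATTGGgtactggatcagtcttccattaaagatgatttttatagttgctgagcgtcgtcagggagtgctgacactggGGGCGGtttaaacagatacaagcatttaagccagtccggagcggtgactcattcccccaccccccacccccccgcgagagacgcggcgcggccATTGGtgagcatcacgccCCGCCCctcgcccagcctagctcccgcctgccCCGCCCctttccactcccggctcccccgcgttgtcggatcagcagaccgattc
Mag: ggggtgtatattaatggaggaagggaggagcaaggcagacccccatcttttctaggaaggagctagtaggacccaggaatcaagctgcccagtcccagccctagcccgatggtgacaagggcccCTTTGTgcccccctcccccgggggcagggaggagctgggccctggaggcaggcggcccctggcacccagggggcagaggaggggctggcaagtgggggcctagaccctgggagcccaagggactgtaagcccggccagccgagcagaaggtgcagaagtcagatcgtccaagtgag
Of the 9050 tested genes with a window, 65.9% held a GC box, 38.3% a CCAAT box and 12.8% a SOX core. Of the 13 myelin genes with a window, 5 (38.5%) held a SOX core, and the window of the myelin gene Mog held 0. The share was not particular to myelin. It was 6 of 16 (37.5%) in genes of disease-associated microglia, 3 of 7 (42.9%) in lipid transport genes and 0 of 7 in genes of oligodendrocyte precursors. A match is a run of letters and not a shown binding site.

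**Figure D2:**
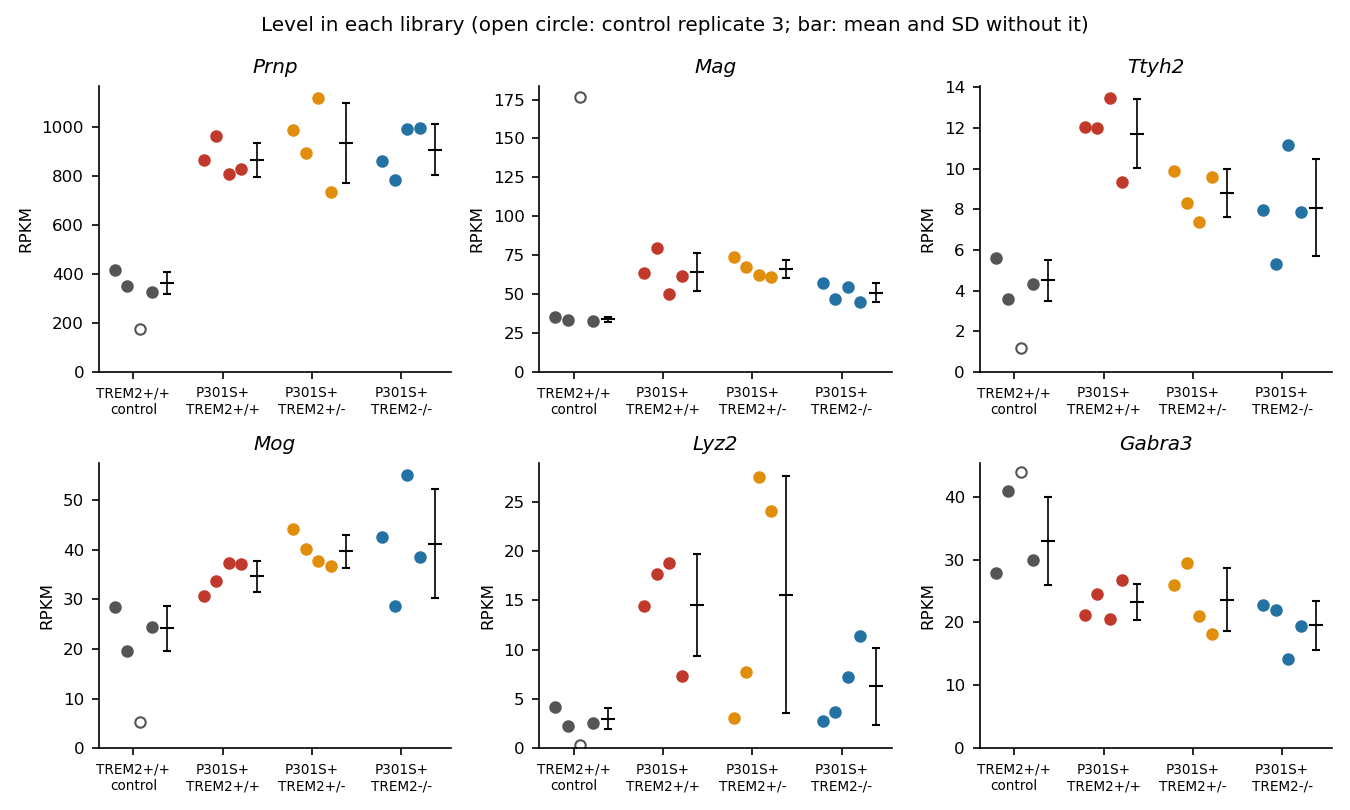
RPKM of 6 genes in each library by genotype (points, 4 per genotype; open circle, control replicate 3; bars, mean and SD without that control). All 12 tau libraries lie above all 4 controls in Prnp, and above controls 1, 2 and 4 but below control replicate 3 in Mag.

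Besides Prnp, the 10 genes with the smallest p-values with all 16 libraries included 5 higher and 2 lower ones described here, and Lyz2, given with the microglial genes. These missed the adjusted threshold in both fits without weights. Ttyh2, a tweety-family chloride channel, stood at 5.33 to 13.4 RPKM in the tau libraries (median 9.48) and at 5.58, 3.58, 4.34 and 1.16 in controls 1, 2, 4 and 3. Its log2 difference was 0.94 ± 0.17 without control replicate 3 (SE, adjusted p = 0.154, limma) and 1.25 with all 16 libraries, and 11 of 12 tau libraries were above the 3 controls. Pmp22, a myelin protein, differed by 0.77 on the log2 scale and Vamp5, a vesicle fusion protein, by 0.63. Alpk1, a kinase that senses a bacterial sugar, was low, at 0.82 to 2.54 RPKM in the tau libraries and 0.12 to 0.50 in the 4 controls, so the groups did not overlap although its control mean was below the filter of 1 RPKM. Rbm15, an RNA-binding protein of the RNA methylation complex, differed by 0.54. Genes with lower values were Gabra3, a GABA-A receptor subunit (-0.61, and -0.66 with all 16 libraries), and C1ql3, a secreted synaptic organizer (-0.57 and -0.73). In both, 11 of 12 tau libraries were below the 3 controls.

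Every tau library was higher than every control in 23 genes (0.191%) and lower in 10 (0.0832%). Against the 3 controls these counts were 50 (0.416%) and 36 (0.300%). Il33, an alarmin cytokine made by glia and chosen here after its values were seen, was among those above all 4 controls, at 27.7 to 50.7 RPKM (median 34.0) against 20.2, 20.2, 25.0 and 12.9 in controls 1, 2, 4 and 3. Its log2 difference without control replicate 3 was 0.69 ± 0.17 (SE, adjusted p = 0.309, limma), and 0.86 with it.

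Myelin genes of mature oligodendrocytes had higher levels in all 3 tau genotypes. All 20 of 20 listed genes were tested, and all 20 had a positive log2 difference without control replicate 3 (19 with all 16 libraries), with a median of 0.44 (0.45). The median was 0.42 in P301S+ TREM2+/+ mice, 0.48 in heterozygotes and 0.56 in knockouts. An unadjusted p under 0.05 was reached by 16 of 20 genes as higher (11 with all 16 libraries) and 0 as lower, and 1 gene, Mag, passed the adjusted test. With each of the other libraries left out in turn, the count stayed between 12 and 16 and the median between 0.42 and 0.51. The mean log2 level over the list was 5.18 to 5.70 in the tau libraries and 5.02, 4.92, 4.80 and 5.004 in controls 1 to 4, so all 12 tau libraries were above all 4 controls on that measure. The summed level was 1492 to 2131 RPKM in the tau libraries and 1278, 1143, 1509 and 1312 in controls 1 to 4. By the sum, heterozygote replicate 1 (1492) was below control replicate 3.

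Mog, a glycoprotein of the outermost myelin layer, stood at 28.7 to 55.1 RPKM in the tau libraries (median 37.5) and at 28.5, 19.6 and 24.4 in controls 1, 2 and 4, with 5.26 in control replicate 3. Its groups did not overlap, and its log2 difference was 0.68 ± 0.14 (SE, adjusted p = 0.276, limma), or 1.15 with all 16 libraries. Mal, a proteolipid of myelin rafts, stood at 56.5 to 89.6 RPKM against 55.4, 46.3, 52.5 and 39.8 in controls 1, 2, 4 and 3, also without overlap. Mal, Qdpr, a pterin-recycling enzyme, and Ermn, a cytoskeletal protein of oligodendrocytes, were chosen after their values were seen. They completed with Mag and Mog the 5 of 20 genes whose tau libraries were all above the 3 controls. Cnp, a phosphodiesterase of non-compact myelin, and Gsn, an actin-severing protein, differed by 0.58 and 0.57, each with 11 of 12 tau libraries above the 3 controls. Control replicate 3 went in opposite directions within the group: it was the highest control in Cnp (85.2 RPKM), Qdpr (565) and Ermn (23.7) and the lowest in Mog and Gsn (4.42).

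Genes of oligodendrocyte precursors and the lineage were less uniform, with 8 of 11 tested genes above 0 and a median of 0.18 (7 of 11 and 0.065 with all 16 libraries, and 0.11 without control replicate 1). Of these, 4 reached an unadjusted p under 0.05 as higher. Bcas1, a marker of early myelinating cells, differed by 0.56, with 11 of 12 tau libraries above the 3 controls, and Sox10 by 0.43, with 9 of 12. Pdgfra, the receptor that marks dividing precursors, was at -0.071 (chosen after its value was seen).

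**Figure D3:**
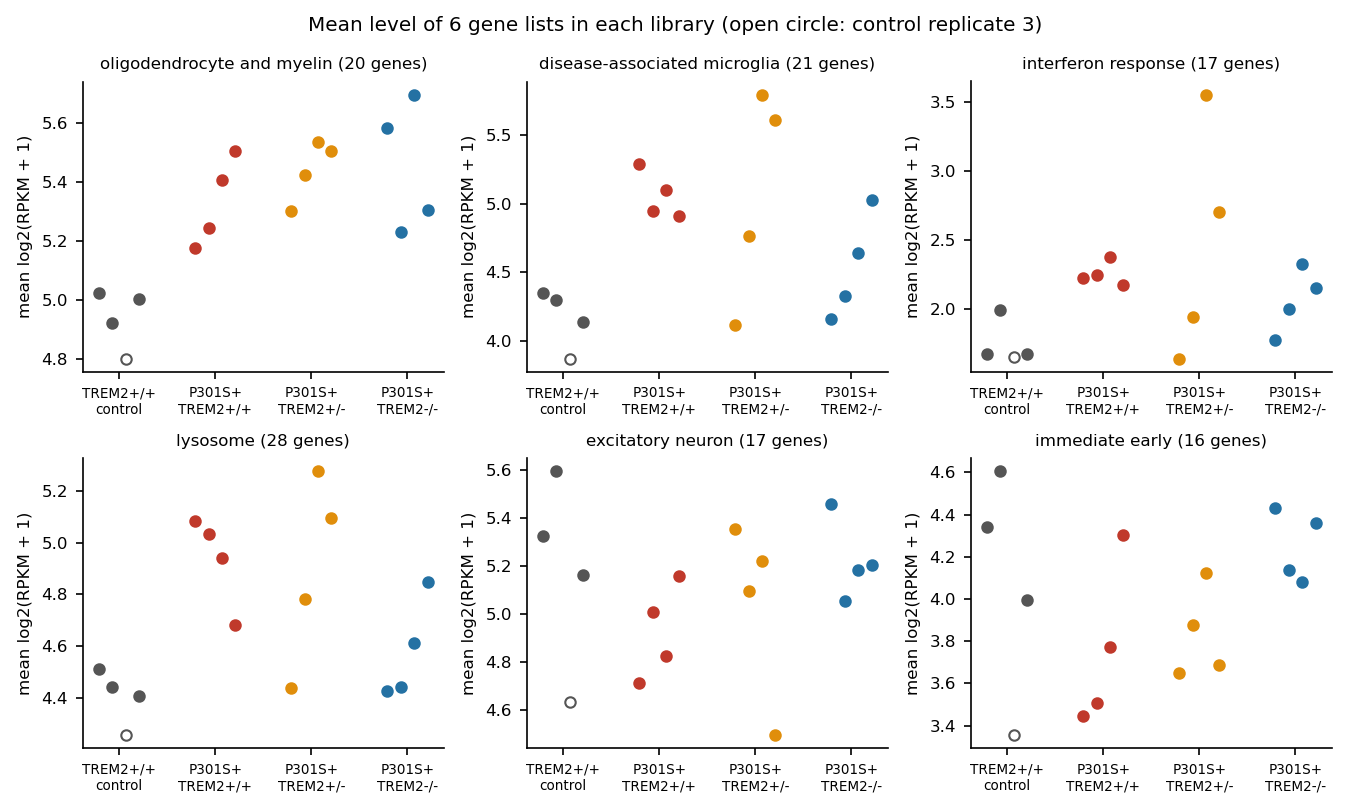
Mean log2(RPKM + 1) over the tested members of 6 gene lists in each library, by genotype (open circle, control replicate 3). In the myelin list every tau library (5.18 to 5.70) lies above every control, whereas in the microglial list heterozygote replicate 1 and knockout replicates 1 and 2 lie among the controls.

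Most of the microglial genes had positive differences, and no microglial list separated the tau libraries from the controls gene by gene. In the general list of microglia and macrophages, 12 of 15 tested genes were positive in both fits, with a median of 0.29 (0.16 with all 16 libraries) and 0.35, 0.39 and 0.095 in P301S+ TREM2+/+ mice, heterozygotes and knockouts. Of its 15 genes 4 were higher at an unadjusted p under 0.05 and 1, Coro1a, an actin regulator of leukocytes, was lower (-0.33). Cd14, 1 of the 4 higher genes, passed the filter only through the tau libraries, with 10, 11, 1 and 5 reads in controls 1 to 4. It was also counted among the 12 positive genes. The median was at least 0.17 without heterozygote replicate 3 or control replicate 1 and 0.44 without control replicate 2. Of 26 listed genes of disease-associated microglia, the activated state found around brain lesions, 21 were tested and 5 were below the filter. Of these 21, 20 had a positive difference without control replicate 3 (18 with all 16 libraries), with a median of 0.52 (0.72), and 12 reached an unadjusted p under 0.05 as higher. None passed the adjusted test. The count was 4 without control replicate 4. Medians were 0.60 in P301S+ TREM2+/+ mice, 0.73 in heterozygotes and 0.33 in knockouts. The list mean was 4.12 to 5.80 in the tau libraries against 4.35, 4.30, 3.87 and 4.13 in controls 1 to 4, and heterozygote replicate 1 (4.12), knockout replicate 1 (4.16) and knockout replicate 2 (4.33) were below the highest control.

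Cst7, an inhibitor of lysosomal cathepsins, had the widest range, from 0.19 to 18.3 RPKM in the tau libraries (median 5.52) against 0.68, 0.21, 0 and 0.19 in controls 1, 2, 4 and 3. It passed the filter only through the tau libraries, of which 9 of 12 were above the 3 controls, and its log2 difference was 2.28 ± 0.65 (SE, adjusted p = 0.331, limma), or 2.13 with all 16 libraries. Lyz2, a lysozyme of myeloid cells, stood at 2.77 to 27.6 RPKM (median 9.53) against 4.21, 2.29, 2.55 and 0.36, a log2 difference of 1.59 ± 0.41. Ccl4, a chemokine with a control mean of 0.34 RPKM that passed the filter only through the tau libraries, differed by 1.53. Cst7 and Ccl4 were counted among the 20 positive genes of the list and among the 12 higher at an unadjusted p under 0.05. Tyrobp, the signalling adapter of Trem2, differed by 1.04, with 9 of 12 tau libraries above the 3 controls. Within the heterozygotes Lyz2 was 3.07 and 7.71 in the females and 27.6 and 24.1 in the males.

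Of the homeostatic genes, which mark resting microglia, none had a negative value without control replicate 3. All 15 tested members had a positive difference without control replicate 3 (12 with all 16 libraries), with a median of 0.39 (0.30). Tmem119, a microglial membrane protein, differed by 0.61 and P2ry12, a purine receptor, by 0.42. Both missed the adjusted threshold (adjusted p = 0.433 and 0.365, limma).

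Complement genes, whose products tag cells and synapses for removal, were positive in 8 of 8 tested members of 12 listed (7 of 8 with all 16 libraries), with a median of 0.60 (0.45). The medians by genotype were 0.69, 0.79 and 0.18 in P301S+ TREM2+/+ mice, heterozygotes and knockouts. C3ar1, a receptor for a complement fragment, stood at 0.64 to 2.54 RPKM in the tau libraries (median 1.02) against 0.53, 0.55, 0.35 and 0.44 in controls 1, 2, 4 and 3. Its controls were all below the filter, so it was tested only through the tau libraries. Of the 8 genes, 3 reached an unadjusted p under 0.05 as higher, 1 without control replicate 4, and 5 without P301S+ TREM2+/+ replicate 4 or heterozygote replicate 1. C3ar1 was counted among the 8 positive genes and among these 3. C4b, a component of the classical pathway, differed by 1.23 and C1qc, a chain of the initiating complex, by 0.86. Control replicate 3 was low in C1qc, at 10.9 RPKM against 54.6 to 59.9 in the other controls.

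The antigen-presenting genes of major histocompatibility complex (MHC) class I had a median of 0.33 over 9 tested members, 7 of them positive (0.48 and 6 with all 16 libraries). At an unadjusted p under 0.05, 5 were higher and 1 was lower, but only 1 was higher when control replicate 1 was left out. The median was 0.62 without control replicate 2 and 0.26 without control replicate 4. H2-K1, whose reads may be shared with near-identical genes of its family, differed by 0.96. The 6 tested members of the class II list were all positive, with a median of 0.60 (5 of 6 and 0.49 with all 16 libraries). The genotype medians were 0.98, 0.57 and 0.058. The members included Ctss, a cathepsin, and H2-Ab1, which passed the filter only through the tau libraries. An unadjusted p under 0.05 was reached by 3 as higher, H2-Ab1 among them, by 0 without control replicate 1 and by 4 without heterozygote replicate 1. H2-Aa, a class II chain, stood at 1.10 to 26.4 RPKM in the tau libraries against 3.16, 3.36, 0.95 and 0.89 in controls 1, 2, 4 and 3, and 8 of 12 were above the 3 controls.

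Interferon-response genes were positive in 15 of 17 tested members, with a median of 0.64 in both fits. The medians by genotype were 0.71, 0.78 and 0.35. By sex they were 0.075 in females, which had 1 control, and 0.86 in males. An unadjusted p under 0.05 was reached by 7 as higher, a count that was 2 without control replicate 1, 1 without control replicate 4 and 11 without heterozygote replicate 1. Ifi27, an interferon-induced mitochondrial protein, stood at 50.4 to 151.7 RPKM in the tau libraries (median 71.5) against 51.9, 47.7, 50.2 and 6.53 in controls 1, 2, 4 and 3, and 11 of 12 were above the 3 controls. Irf7, a transcription factor of the pathway, differed by 0.78, with a control mean of 0.39 RPKM. Gbp3, a guanylate-binding GTPase of the response, stood at 0.61 to 4.04 RPKM (median 1.80) against 0.68, 0.91, 0.45 and 0.58, a log2 difference of 0.81 ± 0.25 that was 0.84, 0.78 and 0.81 in the 3 tau genotypes. Irf7 and Gbp3 passed the filter only through the tau libraries. Both were counted among the 15 positive members and among the 7 higher at an unadjusted p under 0.05.

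The window of Gbp3 is shown because the interferon genes share a known promoter element. It spans chr3:142559794-142560093 on the plus strand (RefSeq, GRCm38.p6, the first of 2 listed windows), and the capitals mark 2 overlapping matches to the interferon element, GAAA and GAAA parted by any 2 bases, searched on both strands.
Gbp3: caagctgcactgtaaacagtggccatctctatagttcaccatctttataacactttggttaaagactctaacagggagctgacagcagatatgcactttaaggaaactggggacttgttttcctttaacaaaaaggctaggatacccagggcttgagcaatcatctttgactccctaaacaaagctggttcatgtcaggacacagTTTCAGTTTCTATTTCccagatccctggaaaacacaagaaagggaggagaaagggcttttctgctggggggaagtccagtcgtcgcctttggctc
Of the 13 interferon-response genes with a window, 8 (61.5%) held the element, against 2.66% of the 9050 tested genes. The holders included Ifit3 and Ifitm3, with differences of 0.93 and 0.77, and also Isg15 and Stat2, at -0.016 and -0.093 (chosen after their values were seen).

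Lysosomal genes, which encode the degradative enzymes and membrane proteins of the lysosome, were positive in 27 of 28 members (23 with all 16 libraries), with a median of 0.33 (0.37). An unadjusted p under 0.05 was reached by 13 as higher and 0 as lower, and by 6 without control replicate 4. Ctsz, a cathepsin, stood at 10.1 to 41.7 RPKM in the tau libraries (median 20.7) against 8.52, 9.08, 12.2 and 15.2 in controls 1, 2, 4 and 3, a difference of 1.13. Ctss, a cathepsin of microglia, differed by 0.93 and Gusb, beta-glucuronidase, by 0.67. The genotype medians were 0.40, 0.42 and 0.16.

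**Figure D4:**
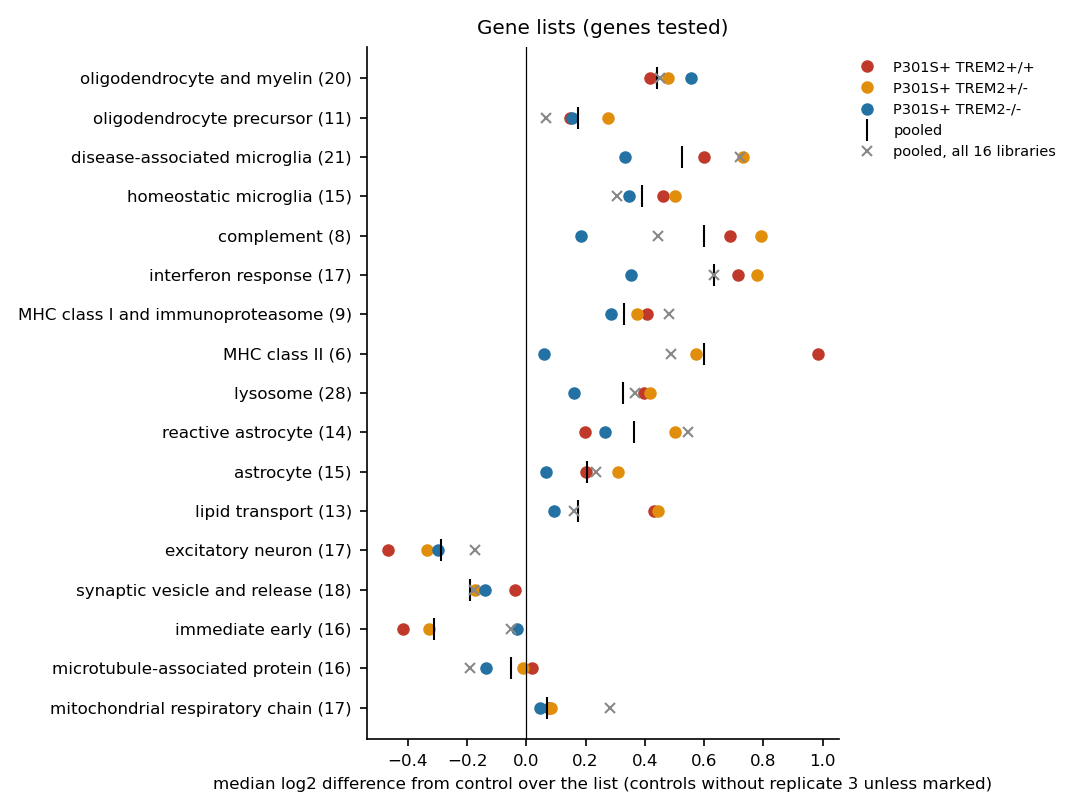
Median log2 difference from control over 17 gene lists, for each tau genotype (coloured points) and pooled (black bar), without control replicate 3, and pooled with all 16 libraries (grey cross). Numbers in brackets are genes tested. The myelin medians of the 3 genotypes lie within 0.42 to 0.56, whereas those of MHC class II run from 0.058 to 0.98.

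Resting astrocyte markers had a median of 0.21 over 15 genes, 14 positive (0.24 and 9 with all 16 libraries), and the glutamate transporter Slc1a2 stood at 415 to 732 RPKM against 407, 359, 445 and 259 in controls 1, 2, 4 and 3. The reactive list had a median of 0.36 over 14 tested of 23 listed genes (0.55 with all 16 libraries), 13 positive in both fits. Gfap, the astrocytic intermediate filament, was at 4.22 to 55.5 RPKM in the tau libraries (median 10.97) against 7.36, 8.60, 4.76 and 32.4. Its difference was 1.005 ± 0.52 without control replicate 3 and 0.34 with it, and it missed the threshold in both. Vim, another intermediate filament, differed by 0.73. Of the lipid transport genes, 11 of 13 were positive, with a median of 0.18 (10 and 0.16 with all 16 libraries, and up to 0.36 without P301S+ TREM2+/+ replicate 2 or 4, knockout replicate 3 or control replicate 2 or 4, the highest without control replicate 2), and genotype medians of 0.43, 0.45 and 0.093. Abca1, which loads lipid onto apolipoproteins, differed by 0.77 (adjusted p = 0.287, limma). Apoe, the main lipid carrier of the brain, differed by 0.82, 0.73 and 0.022 in P301S+ TREM2+/+ mice, heterozygotes and knockouts (F test among the 3, unadjusted p = 0.00465, adjusted p = 0.172, limma).

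Lower values were found among markers of excitatory neurons. Of 17 tested markers of excitatory neurons, 14 were below 0 without control replicate 3 and 10 with all 16 libraries, with medians of -0.29 and -0.17. The genotype medians were -0.47, -0.34 and -0.30 without control replicate 3, and -0.28, -0.063 and 0.14 with all 16 libraries. The list mean was 4.50 to 5.46 in the tau libraries and 5.32, 5.59, 4.63 and 5.16 in controls 1 to 4, so the groups overlapped. An unadjusted p under 0.05 was reached by 5 as lower. That count was 3 without P301S+ TREM2+/+ replicate 1, heterozygote replicate 4, knockout replicate 3 or 4, or control replicate 1 or 2, and it was 8 without P301S+ TREM2+/+ replicate 4. With all 16 libraries the median turned to 0.16 without control replicate 2, the control with the highest summed level of the list after replicate 3. In the 15 libraries it was -0.17 without heterozygote replicate 4 and -0.46 without control replicate 4.

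Camk2a, a kinase of excitatory synapses, stood at 160 to 312 RPKM in the tau libraries (median 261) against 305, 570, 300.2 and 1241 in controls 1, 2, 4 and 3. Its log2 difference was -1.01 with all 16 libraries and -0.65 ± 0.17 without control replicate 3 (SE, adjusted p = 0.309, limma), and it lay between -0.60 and -0.69 in each genotype, with 9 of 12 tau libraries below the 3 controls. Neurod1, a neuronal transcription factor, differed by -0.60, with 11 of 12 below. With all 16 libraries Neurod1 was at -0.038, since control replicate 3 held 3.07 RPKM. Dlg4, the postsynaptic scaffold PSD-95, was at 41.6 to 130.7 RPKM against 101, 172, 76.1 and 116, a difference of -0.87. The postsynaptic list it belongs to had a median of -0.076, with 5 of 17 genes above 0, and 0.061, with 11 above 0, in all 16 libraries. Syp, a synaptic vesicle protein, differed by -0.27, within a release-machinery list whose median was -0.19 (-0.18 with all 16 libraries), with 13 of 18 genes below 0 in both fits.

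Immediate early genes, which neurons switch on with activity, were below 0 in 14 of 16 members without control replicate 3 and in 10 with all 16 libraries, with medians of -0.31 and -0.053. By genotype the medians were -0.42, -0.33 and -0.030 without control replicate 3, and -0.22, -0.15 and 0.15 with all 16 libraries. Junb, a transcription factor subunit, stood at 24.9 to 53.1 RPKM (median 36.4) against 44.2, 90.2, 46.6 and 27.0 in controls 1, 2, 4 and 3. Nptx2, a secreted pentraxin of synapses, differed by -1.53 and -1.70 in P301S+ TREM2+/+ mice and heterozygotes and by 0.21 in knockouts, with no call among genotypes. Of the 16 members, 3 reached an unadjusted p under 0.05 as lower and 1 as higher. Leaving out control replicate 2 made 6 members positive and none lower at that level, and 7 were lower without P301S+ TREM2+/+ replicate 4.

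Hspa1b, an inducible heat shock chaperone, was the one stress gene in which every tau library was below the 3 controls. It stood at 3.12 to 6.69 RPKM (median 4.99) against 8.02, 6.98 and 8.93 in controls 1, 2 and 4, and at 0.34 in control replicate 3. The log2 difference was -0.64 ± 0.11 (SE, adjusted p = 0.114, limma) without that control and 0.036 with it. The heat shock list as a whole had a median of 0.013 (0.067 with all 16 libraries). It turned sign with median-of-ratios scaling (-0.012) and without control replicate 2 (-0.0016). Cryab, a small heat shock protein of glia, differed by 0.52 and in the opposite direction.

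None of the genes closest to tau itself passed the test. Mapt stood at 81.2 to 116.5 RPKM in the tau libraries (median 106) against 102, 129, 99.4 and 188 in controls 1, 2, 4 and 3, and its difference was -0.13 ± 0.10 without control replicate 3 (SE, adjusted p = 0.696, limma). Reads of a human transgene are not listed apart from mouse Mapt. The 16 microtubule-associated genes had a median of -0.050 (-0.19 with all 16 libraries), with Map6, a microtubule stabilizer, at -0.28, and the 16 tau kinases and phosphatases had a median of -0.041 (-0.12).

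Markers of tissue that a cortical piece can include varied between mice. The summed level of the 11 striatal markers found, of which 10 were tested, ran from 291 to 2123 RPKM in the tau libraries. It was 299.6, 972, 714 and 1231 in controls 1 to 4. The median difference of the tested markers was 0.68 (0.52 with all 16 libraries), with 9 of 10 positive and 0 at an unadjusted p under 0.05. It was 0.029 without control replicate 1 and 1.10 without control replicate 2. Rgs9, a striatal regulator of dopamine signalling, stood at 1.37 to 10.7 RPKM against 1.01, 3.95, 5.15 and 7.64. The 12 choroid plexus markers summed to 152 to 2028 RPKM in the tau libraries and 350.3, 189, 475 and 633 in controls 1 to 4. The 8 tested hippocampal markers had a median difference of -0.28 (-0.018 with all 16 libraries, and nearer to 0 without heterozygote replicate 4 or control replicate 4, at -0.10 in the latter). Of the blood markers 8 of 10 and of the T cell markers 7 of 8 found were below the filter. The part of these tissues in the neuronal and glial values was not tested.

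Among the 3 tau genotypes, 2116 of 12015 genes differed at an unadjusted p under 0.05 without control replicate 3 (F test, limma). With all 16 libraries that number was 657. The adjusted test was passed by 3 genes without control replicate 3 (0.0250%) and by 0 with all 16 libraries. The 3 were Flywch1, a zinc finger gene (chromosome 17, 23752793 to 23771602), C1qtnf4, a secreted C1q-like protein (chromosome 2, 90885860 to 90890525), and Trem2 (chromosome 17, 48346401 to 48354147). Flywch1 stood at 31.4, 33.3, 23.9 and 23.4 RPKM in P301S+ TREM2+/+ mice, 38.4, 38.2, 27.4 and 22.4 in heterozygotes and 9.84, 7.96, 9.81 and 9.27 in knockouts. The knockouts did not overlap with the other tau libraries and lay near controls 1, 2 and 4 (12.3, 14.2 and 9.26), while control replicate 3 was at 47.5. The log2 differences from the 3 controls were 1.11, 1.27 and -0.38 (F test, adjusted p = 0.000219, limma). C1qtnf4 was also lowest in the knockouts, with 1.32, 1.07 and -0.54 (adjusted p = 0.00635, limma), and Trem2 had 1.37, 0.20 and -1.80 (adjusted p = 0.0168, limma). The pooled tau value of these genes averages opposite differences. The number of genes differing among genotypes was 501 without P301S+ TREM2+/+ replicate 4 and 1 without knockout replicate 1.

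**Figure D5:**
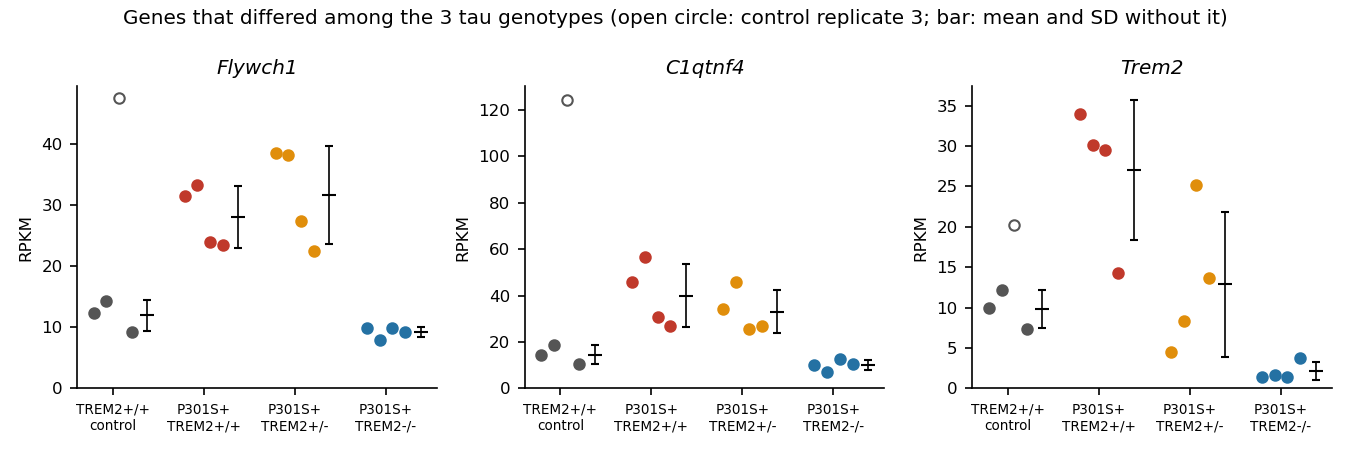
RPKM of the 3 genes that passed the test among tau genotypes, in each library (points, 4 per genotype; open circle, control replicate 3; bars, mean and SD without that control). In Flywch1 and C1qtnf4 the knockouts lie near controls 1, 2 and 4 and below all other tau libraries.

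The tau difference was compared between the sexes as an interaction. It passed in 0 genes in both fits (smallest adjusted p = 0.238 with all 16 libraries and 0.987 without control replicate 3, limma), where 2342 and 456 genes had an unadjusted p under 0.05. The female difference without control replicate 3 rests on 1 control, replicate 2. Prnp differed by 1.34 in females and 1.30 in males in that fit. Pacsin1, an endocytic adapter of neurons, had one of the smallest p-values, with -1.79 in females and -0.38 in males. Its 2 female controls were at 142 and 129 RPKM, its male controls at 54.8 and 57.9 and its tau libraries at 28.0 to 55.4. Without control replicate 3, list medians in females and males were 0.060 and 0.51 for homeostatic microglia and -0.020 and 0.44 for general microglia. They were -0.034 and 0.62 for MHC class I and 0.027 and 0.53 for reactive astrocytes. The myelin medians were 0.46 and 0.50, and some lists went the other way, such as choroid plexus (0.76 and 0.23). The sex difference of list medians was not tested.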

How the data were processed

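RNA of 16 cortices was turned into Lexogen QuantSeq 3' libraries (HiSeq4000), per the labels' protocols. The submitters' processing notes name STAR, HTSeq, edgeR, limma and mm10, with no versions or roles. The values the authors deposited are RPKM, a unit inferred from the numbers since headers give only gene and library. Dividing by length does not suit 3' reads, so levels were compared only within a gene. Each gene's smallest step gave back whole reads (100.0% of 18911 genes above 0), used for depth. A line with no gene, 1 in each file, was dropped. Strand use in counting is unknown.

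limma 3.58.1 (R 4.3.3, trend) was run on log2(RPKM + 1), which understates low genes, for 12015 genes averaging 1 RPKM or more. That mean covers 12 tau and 4 control libraries, so a low gene could pass through the tau libraries alone. The counts of the gene lists include such genes. Terms were 4 genotype means and sex (11 residual degrees of freedom, 10 without control replicate 3). The pooled value is the mean of 3 tau genotypes minus control. P-values were adjusted by Benjamini-Hochberg over all genes, threshold 0.05. The fit was tested on simulated data with the same spread for every gene and no outlying library, which do not measure its power here. Each library is taken as a separate mouse, the labels give no batch or litter, and p-values measure the spread between these samples.

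The members and 39 gene lists were chosen with earlier results of these data known. Named genes are those past the threshold, the 10 smallest p-values with all 16 libraries, up to 4 per list by smallest p, checks of transgene, Trem2 and quality, and up to 6 each for genotype and sex. Others are marked as chosen after their values were seen. Some genes the rule names are not reported here. Up to 27 alternatives were tried: leaving out each library, pseudocounts of 0.1 and 5, filters, model terms, weights, voom on recovered reads and scaling.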

Additional observations from a re-analysis of the deposited data

Results flagged for a closer look

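In 63 genes or library measures, each of the 4 genotypes was checked for 1 library far from the other 3 (a gap to the nearest library above Dixon's 95% critical value as a share of the range). Of 252 such groups 25 were flagged, where chance flags about 1 in 20, and 13 of the 25 were control replicate 3. In that library Mag was at 176.5 RPKM, Cnp at 85.2, Qdpr at 565, Ermn at 23.7, Map6 at 44.8, Apoe at 1145, Gfap at 32.4, Abca1 at 4.64, Flywch1 at 47.5 and C1qtnf4 at 124.5, all above the other controls. C1qc (10.9) and Ifi27 (6.53) were below them, and small nucleolar RNA reads were at 750.2 per M reads.

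The other 12 flags were spread over 9 tau libraries. In P301S+ TREM2+/+ mice, replicate 4 was low in Tmem119 (9.49 RPKM) and Cryab (142) and high in Ccl4 (3.71), replicate 1 was high in H2-Aa (26.4) and in Gfap (22.4), and replicate 3 was high in Vim (34.6). In heterozygotes, replicate 1 was at 4.18 in Hspa1b, replicate 3 at 2.54 in Alpk1 and replicate 4 at 7.06 in Vamp5. In knockouts, replicate 1 was at 72.5 in Syp, replicate 2 at 23.1 in Gsn and replicate 4 at 3.75 in Trem2.

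3 genes differed among the tau genotypes by the F test without control replicate 3 (limma): Flywch1 (adjusted p = 0.000219), C1qtnf4 (0.00635) and Trem2 (0.0168).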

How the results depend on the processing

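Of 59 genes named, 58 kept the sign of their pooled difference under every alternative that tested them without control replicate 3 (at most 26), and 54 with all 16 libraries (at most 27). A stricter filter left some low genes untested. Reversals with all 16 libraries were Hspa1b (0.036 as reported; -0.019 without both P301S+ TREM2+/+ females, -0.092 with a pseudocount of 5, -0.60 with array weights, -0.69 with voom and quality weights; -0.64 to 0.30 leaving out 1 library), C1qtnf4 (-0.086; 0.68 with array weights and with voom and quality weights; -0.38 to 0.62 leaving out 1 library) and, leaving out 1 library, Mag (-0.088 to 0.77), Gfap (-0.096 to 1.005) and Neurod1 (-0.60 to 0.21). Without control replicate 3, Trem2 (-0.077) was 0.079 with a pseudocount of 5 and -0.30 to 0.24 leaving out 1 library.

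Genes called in the pooled comparison with all 16 libraries (1) numbered 0 without both P301S+ TREM2+/+ females or the filter, 29 with array weights, 33 with voom and quality weights and 0 to 2 leaving out 1 library. In the 15 libraries without that control (2) they numbered 1 without the filter, with tau and control as 2 groups and with median-of-ratios scaling, 4 with array weights, 35 with voom and quality weights and 1 to 4 leaving out 1 library. Genes called in each tau genotype with all 16 libraries (0) numbered 1 with array weights and with voom and quality weights, and 0 to 1 leaving out 1 library. In the 15 libraries (1) they numbered 0 without both females or the filter, and 0 to 1 leaving out 1 library. Genes differing among tau genotypes with all 16 libraries (0) numbered 5 with array weights, 6 with voom and quality weights and 0 to 3 leaving out 1 library. In the 15 libraries (3) they numbered 5 with a pseudocount of 5 and without the sex term, 8 with a minimum of 5 RPKM, 7 with array weights, 8 with voom and quality weights and 1 to 501 leaving out 1 library. Genes whose tau difference differed by sex with all 16 libraries (0) ranged from 0 to 5709, the latter without control replicate 2, where control replicate 3 is the only female control. In the 15 libraries (0) they numbered 15 without the filter and 0 to 0 leaving out 1 library, and without control replicate 2 the interaction could not be fitted. Beyond these constructions, the cause of each shift was not tested. No paired analysis was possible because the labels give no number shared between genotypes. The 2552467 reads of knockout replicate 2 limit low genes most.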

Other observations

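Markers of inhibitory interneurons had a median of 0.11 in both fits, with 10 of 16 genes positive without control replicate 3 and 11 with all 16 libraries. It was lower, down to 0.060, without heterozygote replicate 4 or control replicate 2. Endothelial markers had a median of 0.15 over 14 genes (0.27 with all 16 libraries, and 0.065 without control replicate 4). The median of 17 respiratory chain genes was 0.068 without control replicate 3 and 0.28 with it, and it turned to -0.029 without control replicate 2. The median of 17 cholesterol synthesis genes was -0.071 (-0.011 with all 16 libraries, and -0.12 without control replicate 2), with 12 below 0. Autophagy genes had a median of -0.018 over 14 (-0.097 with all 16 libraries), which turned to 0.041 without control replicate 1. Of 17 tested risk genes of Alzheimer disease, 14 were positive, with a median of 0.13 (13 and 0.20 with all 16 libraries, and down to 0.075 without control replicate 1 or knockout replicate 4).

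The 100 of 12015 genes with the smallest p-values in the pooled comparison without control replicate 3 included 9 of the 20 tested myelin genes. They also included 3 of 28 lysosomal genes, 2 of 21 genes of disease-associated microglia and 2 of 18 heat shock genes. Whether these counts exceed those of other genes was not tested. In 12 of 12 tau libraries the mean log2 level of the myelin list was above all 4 controls. These include heterozygote replicate 1 and knockout replicate 1, whose means of the disease-associated microglia list (4.12 and 4.16) were within or below those of the controls. By summed RPKM, the myelin list of heterozygote replicate 1 (1492) was below that of control replicate 3 (1509).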
